A study of Mus musculus with 2 samples.

Results

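The 10 genes described here are known readouts and brakes of fibroblast growth factor (FGF) signalling, taken by symbol from the 43346 genes with an Ensembl identifier in the deposited tables of embryonic mouse lung. They comprise the PEA3 ETS transcription factor genes Etv1, Etv4 and Etv5, the Sprouty genes Spry1, Spry2 and Spry4, the SPRED genes Spred1 and Spred2, the ERK phosphatase gene Dusp6 and Il17rd, which encodes the membrane inhibitor also called SEF. Total RNA was sequenced from lung tissue of mixed-sex B6NCrl embryos at 15.5 days, without any mutant allele or treatment named in the labels. The RNA input was 10 ng, with a minimum RNA size of 200 nt. The single group holds 2 libraries made from pooled lungs, of 78 embryos for replicate 1 and of 62 for replicate 2, so no comparison between conditions exists. The libraries held 40395849.8 and 36601054.1 estimated reads. Values in pairs are given as replicate 1 and then replicate 2.

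FGF ligands bind receptor tyrosine kinases and signal through RAS, RAF, MEK and ERK. In the growing lung, FGF10 from the mesenchyme acts on FGFR2 in the epithelium of the branching tips, where Etv4 and Etv5 are standard readouts of the signal. Sprouty and SPRED proteins, DUSP6 and SEF are induced by the same pathway and dampen it at different steps, which makes them feedback inhibitors.

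All 10 genes were detected, with TPM (a level per transcript length, scaled to the same total in each library) of at least 1 in both libraries. Of all protein-coding genes in the tables, 60.7% met that minimum. At a minimum of 5 TPM, 9 members and 48.8% of those genes were kept, and Il17rd was not. Etv5 stood highest at 141 ± 0.863 TPM (SD, n = 2), and Il17rd lowest at 1.4 ± 0.0707, a span of 101-fold in mean TPM. The median of the 10 mean levels was 15.1 TPM, beside 19.8 TPM for the 13032 detected protein-coding genes. Etv5 alone held 43.8% and 43.9% of the summed TPM of the 10 genes. The deposited TPM intervals, which cover read counting and read assignment within a library, gave the same order without overlap in both libraries for 42 of the 45 pairs of genes. The exceptions were Spred1 against Spry1, Spry1 against Etv4, and Etv4 against Spry4. In whole tissue, fewer cells of a type and less RNA per cell cannot be told apart.

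**Figure D1:**
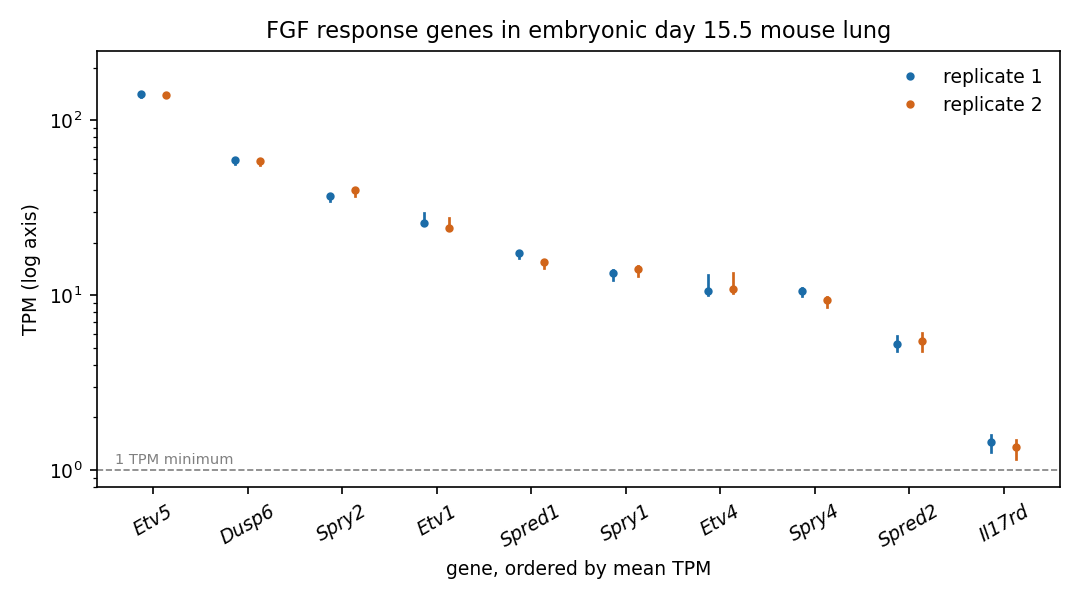
TPM on a log axis for the 10 genes in order of mean level, with a point per library and a vertical line for its deposited TPM interval. The levels run from Etv5 at 141 TPM down to Il17rd at 1.4 TPM, and the libraries lie close to each other at each gene.

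Among the PEA3 factors, which bind DNA through an ETS domain and carry the transcriptional response to FGF, Etv5 (ENSMUSG00000013089.11; chromosome 16, 22381309 to 22439719, minus strand) had 141 and 140.2 TPM from 14427 and 13297 reads. It reached or exceeded the level of 91.8% of detected protein-coding genes. Etv1 (ENSMUSG00000004151.12; chromosome 12, 38779380 to 38870484) followed at 26.0 and 24.2 TPM from 2207 and 1916 estimated reads. Etv4 (ENSMUSG00000017724.10; chromosome 11, 101769742 to 101785371, minus strand) stood at 10.5 and 10.8 TPM on 508 and 496 reads. The rank order within the family was the same in both libraries, and no intervals overlapped. Etv5 exceeded Etv1 5.62 ± 0.242-fold and Etv4 13.2 ± 0.327-fold, while Etv1 exceeded Etv4 2.36 ± 0.16-fold (SD, n = 2, on TPM). Etv5 made up 79.5% and 80.0% of the summed PEA3 level of 178 and 175 TPM.

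The reads of Etv5 were assigned almost wholly to a single transcript, Etv5-201, with 98.2% and 98.8% of the gene's TPM. Its deposited interval is placed around another estimate, the posterior mean, so that the TPM of 138.9 and 138.5 lay just above its upper ends of 137.9 and 137.5. This transcript starts in the upstream first exon. RefSeq lists a further Etv5 start inside the first intron of Etv5-201, 1351 bases downstream of that transcript's start, where 0 of the transcripts in the counted annotation begin. The window before this intronic start is shown because it holds 3 octamers of the type bound by Capicua (Cic), a repressor of PEA3 genes that ERK signalling relieves. It lies at chr16:22438472-22438618 (GRCm38.p6, minus strand, RefSeq table, 5′ to 3′), with the octamers in capitals, and starts 250 bases before the start site.
Etv5 intronic window: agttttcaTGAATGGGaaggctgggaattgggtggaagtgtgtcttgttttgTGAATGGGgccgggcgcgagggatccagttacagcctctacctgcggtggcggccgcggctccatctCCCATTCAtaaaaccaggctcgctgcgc
All of them are TGAATGGG. Those 242 and 198 bases before the start read along the gene, and the one 131 bases before it lies on the opposite strand. The window of the upstream start, whose exon opens the leading transcript, had 0 such octamers. Cic itself stood at 24.9 and 25.3 TPM, and Etv5 exceeded it 5.62 ± 0.106-fold.

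Etv1 was spread over several transcripts. Etv1-201 held 47.0% and 46.3% of its TPM, Etv1-203 25.9% and 34.4%, and Etv1-212, annotated as a retained intron without a coding sequence, 16.8% and 13.5%. The intervals of Etv1-201 lay above those of Etv1-203 in both libraries. Within the coding span that Etv1-201 and Etv1-203 share, they differ by 1 exon of 69 nt at chr12:38852220-38852288 (plus strand), shown in capitals with 12 bases on either side (GENCODE M21 transcript sequence, GRCm38).
Etv1 exon of 69 nt: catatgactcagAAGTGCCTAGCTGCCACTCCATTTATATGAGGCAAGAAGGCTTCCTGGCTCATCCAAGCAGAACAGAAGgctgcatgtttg
Transcripts with this exon, among them Etv1-212, summed to 18.7 and 15.5 TPM, and those that span the position without it to 6.73 and 8.32 TPM. The exon was thus present in 73.5% and 65.1% of the Etv1 level that spans it. The exon positions come from M21, and Etv1-201 is longer there (6576 nt) than as counted by the authors (4307 nt), so the structure used in counting may differ. They also differ in their first and last exons, so the share does not rest on reads across this exon alone.

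For Etv4 the assignment among transcripts was unstable. Etv4-202 held 30.6% and 32.5%, Etv4-201 18.2% and 43.2%, and Etv4-212 26.2% of the TPM in replicate 1 (163 reads) but 0 in replicate 2. The deposited intervals of Etv4-212 still met, at 1.08 to 4.39 and 4.54e-05 to 1.31 TPM. Etv4-201 and Etv4-202 differ by 18 coding bases at an alternative splice site, chr11:101774228-101774245 (minus strand), printed in capitals with 15 bases on either side (GENCODE M21 transcript sequence).
Etv4 segment of 18 nt: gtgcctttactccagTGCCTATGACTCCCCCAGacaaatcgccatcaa
Grouped by this segment, the transcripts with it summed to 5.46 and 5.51 TPM, or 62.9% and 59.9% of the level that spans the position, and those without it to 3.22 and 3.69 TPM. The sum with it includes Etv4-212 and a noncoding model at 0.79 and 0.85 TPM. The intervals of Etv4-201 and Etv4-202 overlapped in both libraries, so which of them is higher is not settled. A short noncoding model of 400 nt, Etv4-211, named after its values were seen, held 11.5% and 7.05% of the gene's TPM on only 9.61 and 5.64 reads.

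Sprouty proteins are inducible inhibitors that act between the receptor and ERK. Spry2 (ENSMUSG00000022114.4; chromosome 14, 105891947 to 105896819, minus strand) led the family at 37.1 and 39.8 TPM from 1949 and 1943 reads. Spry1 (ENSMUSG00000037211.8; chromosome 3, 37639947 to 37644598) had 13.4 and 14.1 TPM from 843 and 821 reads. Spry4 (ENSMUSG00000024427.6) had 10.6 and 9.37 TPM from 1263 and 1035 reads. All 3 intervals were apart in each library. Spry2 exceeded Spry1 2.8 ± 0.0414-fold and Spry4 3.87 ± 0.536-fold, and it made up 60.7% and 62.9% of the Sprouty total of 61.1 and 63.2 TPM. Spry4 took more reads than Spry1 in both libraries although its TPM was lower, since its listed transcript measures 4587 nt against about 2481 and 2475 nt for Spry1. Spry1 exceeded Spry4 1.38 ± 0.171-fold per length.

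Spry2 and Spry4 each have 1 listed transcript. Spry1-201 held 72.9% and 57.6% of the Spry1 level and Spry1-203 24.7% and 40.4%, with overlapping intervals. In M21 these transcripts differ only in the first exon. An exon of Gm42922, on the opposite strand, overlaps an exon of Spry1 in M21. It is not among the counted genes, and use of strand in counting is not given in the sources used here, so reads of either origin could stand under Spry1. The window before the Spry2 start, which is also the start of its only transcript, held 1 Capicua octamer (TCAATGAA, on the opposite strand, 54 bases before the start). It is shown in capitals at chr14:105896846-105896893 (GRCm38.p6, minus strand, RefSeq table).
Spry2 window: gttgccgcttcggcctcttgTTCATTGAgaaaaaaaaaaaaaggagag

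The SPRED proteins are Sprouty-related and bring the RAS brake neurofibromin (Nf1) to the membrane. Spred1 (ENSMUSG00000027351.10; chromosome 2, 117121374 to 117182279) had 17.4 and 15.4 TPM from 2639 and 2113 reads. Spred2 (ENSMUSG00000045671.13; chromosome 11, 19924375 to 20024026) had 5.29 and 5.47 TPM from 486 and 438 reads. Spred1 exceeded Spred2 3.05 ± 0.332-fold, with separate intervals in both libraries. The third family gene, Spred3, was at 1.51 and 1.06 TPM, below both. The partner gene Nf1 had 5.02 and 4.46 TPM: Spred1 exceeded it 3.46 ± 0.00653-fold, and the intervals of Spred2 and Nf1 overlapped in both libraries.

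Spred1-201 held 96.1% and 92.5% of the Spred1 level. Spred2 was divided between Spred2-201 (55.0% and 51.5%) and Spred2-202 (45.0% and 41.1%), whose intervals overlapped. By estimated reads the order was the opposite, since Spred2-202 is longer (4449 nt against 2852) and took 56.4% and 55.0% of the reads. Spred2-202 carries an additional coding exon of 81 nt at chr11:20001009-20001089 (plus strand), shown in capitals with 12 bases on either side (GENCODE M21 transcript sequence).
Spred2 exon of 81 nt: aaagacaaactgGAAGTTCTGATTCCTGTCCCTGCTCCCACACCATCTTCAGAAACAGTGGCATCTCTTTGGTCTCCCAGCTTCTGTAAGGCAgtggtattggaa
Spred2 transcripts with the exon made up 45.0% and 48.4% of the level that spans it. The replicate 2 share includes Spred2-203, a model of 745 nt at 0.4 TPM on 6.41 reads, which had 0 reads in replicate 1. Spred2-202 and Spred2-201 also differ in the length of the first and last exons, so the share does not rest on reads across this exon alone.

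**Figure D2:**
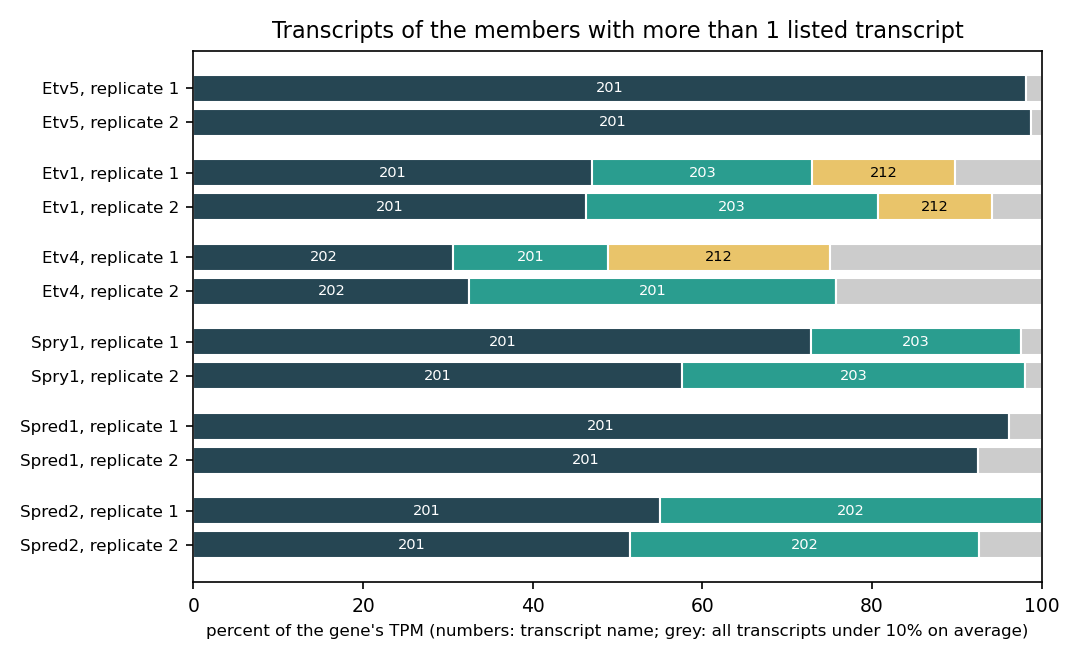
Percent of each gene's TPM held by its transcripts, in a bar per library, for the members with more than 1 listed transcript. A single transcript fills the bars of Etv5 and Spred1, whereas Etv1, Etv4, Spry1 and Spred2 are divided and the Etv4 bars differ most between the libraries.

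Dusp6 (ENSMUSG00000019960.7; chromosome 10, 99263231 to 99267489) encodes the cytoplasmic phosphatase that removes phosphate from ERK. It was the second highest member at 59.6 and 58.6 TPM, on 4252 and 3887 reads, and reached or exceeded 78.5% of detected protein-coding genes. Its single listed transcript begins at the RefSeq start. The window around that start is shown because the octamer TCAATGGA, on the opposite strand, occurs in it 2 times, the first 24 bases before the start and the second 1 base after it. It lies at chr10:99263187-99263239 (GRCm38.p6, plus strand, RefSeq table), with the octamers in capitals.
Dusp6 window: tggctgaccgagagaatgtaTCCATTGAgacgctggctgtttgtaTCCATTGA

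Il17rd (ENSMUSG00000040717.5; chromosome 14, 27038941 to 27107286) was near the detection minimum at 1.45 and 1.35 TPM. Its transcript is the longest of the members at 8220 nt, so these levels rest on 312 and 269 reads, and the lower interval ends of 1.27 and 1.16 TPM stayed above 1. A count of 0 would have allowed 0.0139 and 0.0151 TPM. Of detected protein-coding genes, 1.97% stood at or below its mean. In FPKM, another length-corrected unit, it lay under 1, at 0.95 and 0.91.

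RefSeq start windows of 300 bases (250 before the start, 50 from it) were listed for 8 of the 10 members, in 10 windows. Capicua octamers were searched on both strands as TGAATGAA, TGAATGAG, TGAATGGA, TGAATGGG, TCAATGAA, TCAATGAG, TCAATGGA and TCAATGGG. They occurred in 3 member windows, the intronic one of Etv5, that of Spry2 and that of Dusp6, and in 7.02% of all 32851 windows. Windows with 2 or more made up 0.444% and those with 3 or more 0.0791% of all windows. Another 4 sequences searched on both strands had 0 member windows. These were the ETS sequence CCGGAAGT (3.89% of all windows), its shorter form CCGGAAG (8.86%, which includes the former), the cAMP response element TGACGTCA (1.79%) and the AP-1 sequence TGACTCA (5.2%). All 5 searches were chosen after the deposited data had been seen, and the windows printed are those with a match. A match describes letters, not binding, and no match says only that the letters are not in these windows.

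The comparison of the libraries asks how far the pools differed at these genes. Of the 9 members whose mean reached 5 TPM, 0 differed by 2-fold with separate intervals, and 0.355% of the 11261 genes at that level did. Il17rd, below that level, had a log2 ratio of -0.03. After TMM scaling, which corrects for library composition, log2 ratios of replicate 2 over replicate 1 ran from -0.11 for Spry4 to 0.17 for Spry2. Their median size was 0.11, beside 0.08 for all detected protein-coding genes. Spry2 was the member farthest from 0, 1.13-fold higher in replicate 2, and 88.4% of detected genes within 2-fold of its level had a smaller ratio. The ratio of Etv5 was 0.06, larger than that of 51.0% of genes near its level.

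Which members differed beyond their intervals turned on the scaling. With TMM, Etv5 and Spry2 had separate intervals and were higher in replicate 2, against 13.5% of all genes at that level, 4.32% (486) higher in replicate 1 and 9.21% (1037) higher in replicate 2. With TPM as deposited, the members with separate intervals were Spred1 and Spry4 (the latter on chromosome 18, 38586247 to 38601415, minus strand), both higher in replicate 1, and the numbers over all genes were 1640 higher in replicate 1 and 320 in replicate 2. The TMM scaling raised the TPM of replicate 2 by 0.07 (log2), and the signs for Etv5 and Dusp6 turned with it. This shift is the median difference, over well-read genes, between log2 ratios of TMM-scaled reads and of TPM. It also takes in the step from TPM to read totals, so it is not the ratio of the TMM factors alone.

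**Figure D3:**
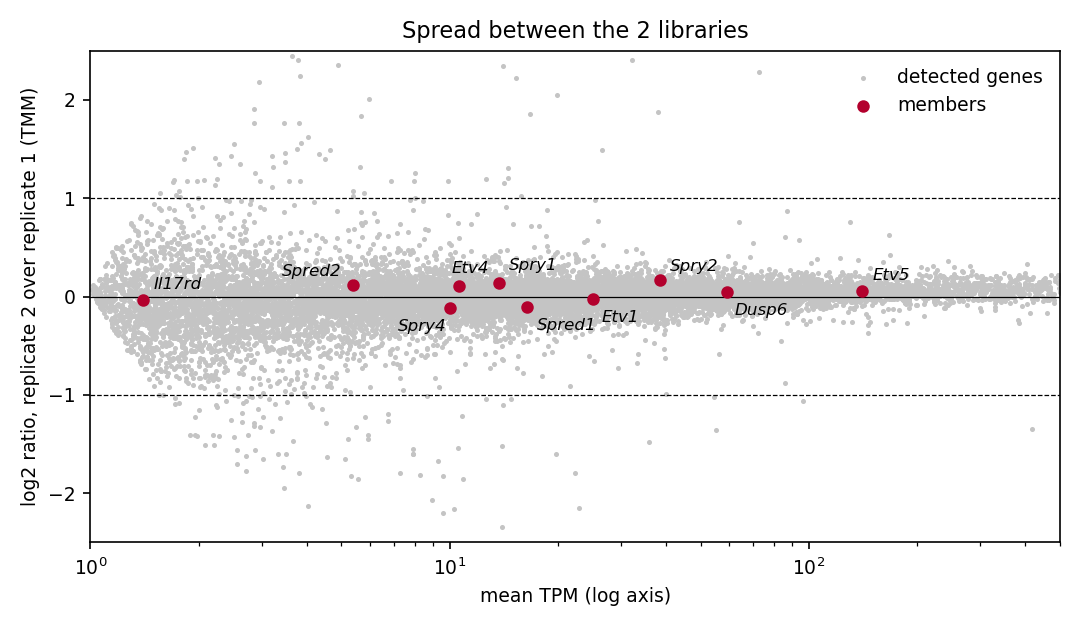
Log2 ratio of replicate 2 over replicate 1 after TMM scaling against mean TPM on a log axis, with detected genes in grey and the members in red; dashed lines mark 2-fold, and 281 genes outside the axes are not drawn. The members lie between -0.11 and 0.17.

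The labelled tissue was checked on marker genes. All 5 epithelial, 4 distal tip, 5 mesenchymal and 4 endothelial markers were detected in both libraries. So were all 3 leukocyte, 3 red cell, 5 liver and 4 heart and skeletal muscle markers, and 4 of 5 thymus markers. Detection alone therefore does not tell lung from other tissue here. Genes of neighbouring organs differed between the pools: 5 liver markers summed to 31.6 and 143 TPM, 4 heart and skeletal muscle markers to 64.7 and 243 TPM, and 5 thymus markers to 77.9 and 15.2 TPM. All 3 smooth muscle markers had ratios above 0 (median log2 0.22), with sums of 870.4 and 983 TPM. The 5 epithelial markers had a median log2 ratio of -0.08, from -0.20 for Krt18 to 0.10 for Epcam. For the mesenchymal and endothelial markers the medians were -0.02 and 0.02. The 4 distal tip markers had a median log2 ratio of -0.06. Sftpc, at 6881 and 5864 TPM, made up most of their sums of 7356 and 6309, while Sox9 stood at 53.6 and 53.8 TPM. The part of such cells in the member ratios was not tested.

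Around the members, 75 of 80 other genes of FGF and ERK signalling were detected, beside 60.7% of all protein-coding genes. Over all 80 the median mean level was 14.3 TPM. The highest and lowest gene of each role are given by mean TPM. Among ligand genes 5 of 8 were detected. Fgf1 had the highest mean, at 17.4 and 12.1 TPM, but Fgf10, at 14.3 and 13.6, was above it in replicate 2, where their intervals overlapped. Fgf2 (1.38 and 0.74), Fgf20 (0.14 and 0.1) and Fgf22 (0.1 and 0.1) missed the minimum. Both Fgf2 values lay below their deposited intervals, 1.40 to 3.30 and 0.80 to 2.41 TPM, and the interval of replicate 2 includes the minimum. All 5 receptor genes were detected, from Fgfr2 (149 and 133 TPM) to Fgfr4 (16.8 and 16.9). The mean level of Etv5 was 1.0 ± 0.0745 times that of Fgfr2. Fgfr2 was the higher gene in replicate 1, and the intervals overlapped in replicate 2.

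The 4 MEK and ERK genes had the highest median of these roles, 121 TPM, with Map2k2 at 150 ± 1.35 and Map2k1 lowest at 59 ± 0.106 TPM. RAS and RAF genes had 7 of 7 detected, from Hras at 84.8 ± 1.76 to the scaffold gene Ksr1 at 1.99 ± 0.389. Araf, at 86.5 and 82.4 TPM, was above Hras (86.1 and 83.6) in replicate 1. Adaptors and exchange factors were detected in 9 of 9 cases, from Shc1 at 91.9 ± 2.55 to Sos1 at 3.5 ± 0.0141. The RAS brakes and Sprouty or SPRED partners were all 6 detected, at levels between Siah2 (4.27 ± 0.113) and the RAS GTPase activator gene Rasa1 (39.1 ± 1.34).

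Dusp6 stood above each of the 10 other dual specificity phosphatase genes listed here, all of them detected. The highest of these, Dusp1, had 20.7 ± 1.82 TPM, and Dusp6 exceeded it 2.87 ± 0.218-fold with separate intervals in both libraries. The lowest was Dusp8 at 2.21 ± 0.113. This list does not cover the whole family, and Dusp3, at 16.9 and 15.8 TPM, was among the genes outside it. Other FGF modulators had 7 of 8 detected, with the heparan sulphate sulphatase gene Sulf2 highest at 39.9 ± 4.65 and Flrt1, at 1.21 and 0.76 TPM, missing the minimum.

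The 11 other ETS factors and repressors were all detected, from Ets1 at 88.2 ± 1.88 to the Capicua partner gene Atxn1 at 4.38 ± 0.346. Ets2, at 90.2 and 80.4 TPM, was above Ets1 (89.5 and 86.8) in replicate 1. Etv5 exceeded Ets1 1.6 ± 0.0243-fold. Genes for degradation of PEA3 factors were led by the ubiquitin ligase gene Cop1 at 81.7 ± 0.318, with the adaptor-like Trib1 lowest at 11.7 ± 1.54. Among ERK response genes 6 of 7 were detected, from Ccnd1 at 108 ± 5.07 down, and Fosl1 missed the minimum at 0.31 and 0.38 TPM.

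**Figure D4:**
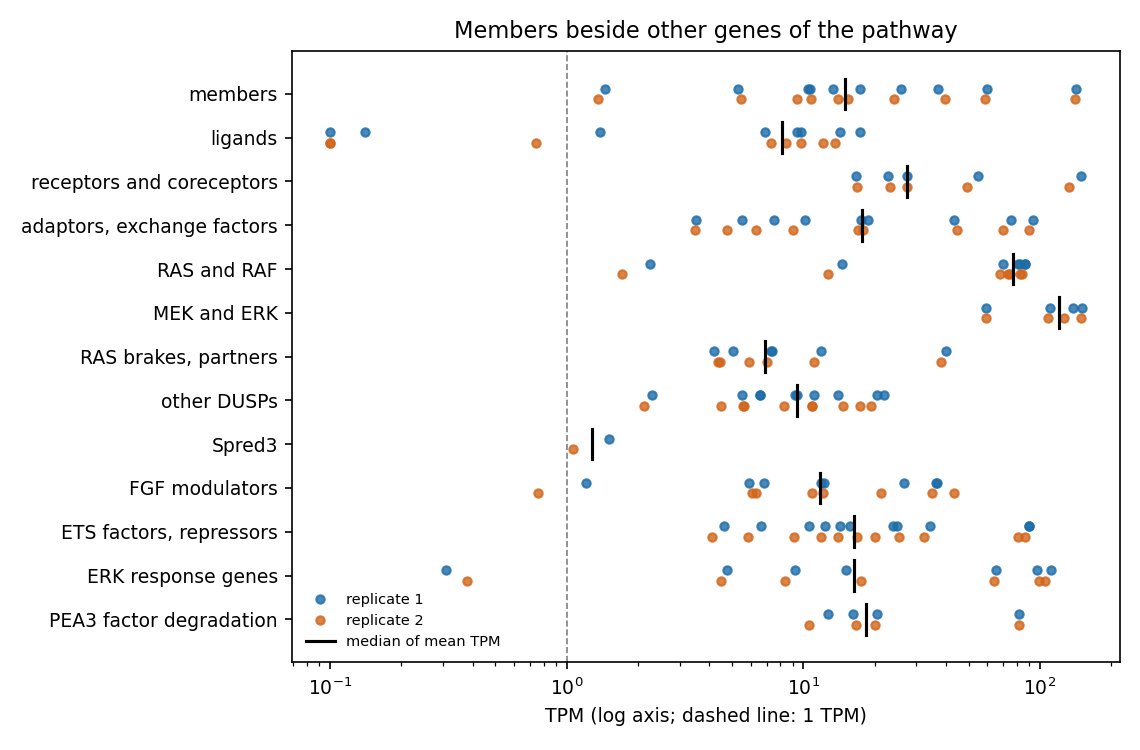
TPM on a log axis for the members and for the other pathway genes by role, with a point per gene and library and a black line at the median of the mean levels. The members spread from 1.4 to 141 TPM with a median of 15.1, beside 14.3 TPM for all 80 other genes. Apart from Spred3, a single gene, the role medians ran from 6.88 TPM for RAS brakes and partners to 77.2 TPM for RAS and RAF and 121 TPM for MEK and ERK genes.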

How the data were processed

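Both libraries of the single group were used. The authors deposited a gene and a transcript table for each, on mm10 with GENCODE M4 per the deposited text on the files. Which quantifier was run, in which version and with which strand setting, is not given in the sources used here. Expected counts, as deposited, estimate how many reads each gene or transcript received, per the file headers. Deposited TPM and FPKM values are per effective length, per the file headers. The deposited percent of a gene's TPM is given for each transcript. The deposited TPM interval ends are a signal on the TPM scale, whose level is not stated. Names and positions come from GENCODE M21 on the same build, matched for 97.96% of identifiers, and start windows from RefSeq.

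Expected counts were rounded for TMM (edgeR 4.0.16, R 4.3.3; factors 1.01 and 0.989) and for DESeq2 1.42.0 size factors. Each scaling was carried to TPM as a single shift of replicate 2. The shift was the median difference, over well-read genes, between log2 ratios of scaled reads and of TPM. Spike-in sequences took 2.14% and 2.37% of reads and, like the numbered features that name no gene (0.000176% and 0.00018%), stayed out of library sizes. Sampling noise alone did not account for the difference between the libraries, with chi-square over degrees of freedom at 7.07 (17798 genes). A gene was apart at a mean of 5 TPM or more, 2-fold and with separate intervals. On data simulated with sampling noise alone, 99.5% of 200 genes changed 3-fold among 11261 were recovered, with 1 false call. The simulation held no other difference between the pools, so these figures do not carry over to the real libraries. Values are the mean ± SD of 2 libraries, and no test between conditions exists. Intervals cover counting and assignment only.

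Members and gene lists were chosen with earlier results of these data known. Named were all members, transcripts with 10% or more of a gene's TPM on average, the highest, lowest and undetected genes of each role, and the partners Nf1, Cic and Fgfr2. Of 82 listed pathway symbols, Spry3 and Rfwd2 (an older name of Cop1) matched no feature name and were not analysed here. Alternatives were other minimums, units, scalings and single libraries.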

Additional observations from a re-analysis of the deposited data

How the results depend on the processing

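No paired analysis was possible because the series holds 1 group. All 10 members were detected with a minimum of 0.5 TPM, by the lower interval ends and in either library alone. The number was 9 with a minimum of 5 TPM and 9 by FPKM, Il17rd being the gene lost. Pathway genes detected ranged from 65 (5 TPM) to 77 (0.5 TPM), beside 75. Of all protein-coding genes, 48.8% met the minimum of 5 TPM and 60.7% that of 1 TPM. No member lay apart between the libraries in any of the 5 alternatives run, while the number over all genes went from 40 to 81 at 1.5-fold, 63 by an exact binomial test of reads, 157 with a minimum of 1 TPM and 320 with none. Members with separate intervals at any fold numbered 2 under each scaling (an alternative chosen after seeing the data), but TPM without scaling gave Spred1 and Spry4 in place of Etv5 and Spry2, and the log2 ratio of Etv5 turned to -0.012. The order of the members held under the posterior mean and in replicate 2 alone, with Etv4 and Spry4 changing places in replicate 1 alone; neighbours called different were 6, and 7 and 8 in a single library. Posterior means raised Etv4 by 8.97% and Etv1 by 5.48%, and lowered the others by up to 2.22%. On reads in place of TPM, 5 of the 7 family ratios moved by over 1.5 times: Etv5 to Etv4 to 27.6, Etv1 to Etv4 to 4.1, Spry2 to Spry4 to 1.71, Spred1 to Spred2 to 5.13 and Spry1 to Spry4 to 0.73 (the order reversed). The others went to 6.74 (Etv5 to Etv1) and 2.34 (Spry2 to Spry1). Depth is lowest for Il17rd, at 312 and 269 reads.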

Other observations

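Of 67 other pathway genes whose mean reached 5 TPM, 0 differed by 2-fold and 8 (11.9%) had separate intervals between the libraries after TMM scaling, all named after their values were seen. Over all genes at that level the shares were 0.355% and 13.5%, so the pathway genes did not stand above the background in either. The same call held on TPM as deposited for 6 of them. Fgf1, an FGF ligand gene, was 1.38-fold higher in replicate 1 (17.4 and 12.1 TPM). The ubiquitin ligase gene Cblb was 1.19-fold higher there (7.38 and 5.89), the ETS factor gene Ets2 1.07-fold (90.2 and 80.4) and Trib1 1.15-fold (12.8 and 10.6). The related sulphatase genes Sulf1 and Sulf2 lay on opposite sides: Sulf1 was 1.19-fold higher in replicate 1 (26.7 and 21.4) and Sulf2 1.24-fold higher in replicate 2 (36.6 and 43.1). Dusp9 (9.39 and 10.9) and Ier3 (15.2 and 17.6) were higher in replicate 2 after TMM scaling, and their intervals overlapped without it.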
